A study of Rattus norvegicus with 12 samples.

Results

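Nr4a1, Nr4a2 and Nr4a3, the 3 genes of the Nr4a family of orphan nuclear receptors, were examined in β-synuclein-reactive CD4+ T cells of the rat. They were chosen by name, through the Ensembl identifiers ENSRNOG00000007607 (Nr4a1), ENSRNOG00000005600 (Nr4a2) and ENSRNOG00000005964 (Nr4a3). All 3 were found among the 32754 genes of the 12 count tables, and all 3 passed the low-count filter in every comparison. T cells of LEW/Crl rats were recovered after intravenous transfer, and the groups, of 3 libraries each, were b-syn TCR Tg cells from brain parenchyma, b-syn TCR Tg cells from the meninges, b-syn TCR Tg cells from blood, and wt cells from blood. The Tg cells carry a T cell receptor transgene for β-synuclein, a protein of nerve terminals, and the wt cells are also labelled as β-synuclein reactive. The labels do not state the age of the rats, the promoter of the transgene, any pooling of animals, or a measure of contact with antigen for any library. The series names day 3 after transfer for all samples, whereas the titles of the parenchyma samples carry the digit 4 and those of the other samples the digit 3. If that digit marks a day, tissue and day cannot be told apart in any comparison with the parenchyma.

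The family is known as a set of immediate early genes, transcribed shortly after a cell is stimulated and without new protein synthesis. In T cells the signal through the T cell receptor induces them, and Nr4a1 reporters are used in mice to mark cells that have recently received that signal. Nr4a1 (also Nur77 or Ngfi-b), Nr4a2 (Nurr1) and Nr4a3 (listed as NOR-2 in RefSeq) bind related DNA elements, and their activity depends largely on how much protein is made, because they need no known ligand. In mouse T cells they restrain effector functions and contribute to tolerance and exhaustion.

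Nr4a1 and Nr4a2, 2 of the 3 genes, matched by symbol in the RefSeq promoter table of build GRCr8. The 250 bases before the listed start are shown for both, since the genes changed together between tissues, with capitals for TGCGTCA in Nr4a1 and for GGAAA, the NFAT core, in Nr4a2. The window before Nr4a1 spans chr7:134259888-134260137 on the plus strand and that before Nr4a2 spans chr3:62104888-62105137 on the minus strand.
Nr4a1: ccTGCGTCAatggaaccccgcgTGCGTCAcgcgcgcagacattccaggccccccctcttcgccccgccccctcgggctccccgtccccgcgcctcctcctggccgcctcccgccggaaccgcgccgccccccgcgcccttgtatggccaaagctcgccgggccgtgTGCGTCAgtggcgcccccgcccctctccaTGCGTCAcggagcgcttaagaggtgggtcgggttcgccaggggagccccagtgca
Nr4a2: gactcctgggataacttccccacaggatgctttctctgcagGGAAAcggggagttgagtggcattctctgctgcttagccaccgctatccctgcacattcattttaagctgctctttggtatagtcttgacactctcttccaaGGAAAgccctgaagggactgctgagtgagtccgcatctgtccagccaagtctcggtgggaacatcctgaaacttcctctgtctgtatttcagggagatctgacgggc

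The 2 windows differed in the elements they held. TGCGTCA, which resembles the cyclic AMP response element TGACGTCA, occurred 4 times before Nr4a1 and 0 times before Nr4a2. It was singled out after the Nr4a1 sequence had been read. On either strand it was found in 1.66% of the 33469 promoter windows of the same length, and 1 window, that of Nr4a1, held 4 or more. GGAAA occurred 2 times before Nr4a2 and 0 times before Nr4a1. Of all windows, 56.9% held it and 22.9% held it 2 or more times. Neither window held TGACGTCA, the AP-1 element TGACTCA, the element AAAGGTCA that the receptors themselves bind, a CArG box, a MEF2 site or TATAAA, on either strand. These elements were found in 1.59% (TGACGTCA), 4.05% (TGACTCA), 1.24% (AAAGGTCA), 1.5% (CArG box), 2.96% (MEF2) and 12.9% (TATAAA) of all windows. An EGR element was found once before Nr4a1, in the reverse orientation, and in 4.29% of all windows. Bases G and C made up 74.8% of the Nr4a1 window and 52.0% of the Nr4a2 window. Letter matches in these windows are descriptions and were not set against any measure of binding.

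Depth differed between libraries, from 16643832 to 38601400 counts, so levels are given as CPM, the counts of a gene scaled to a library total of 1000000. Fold changes and adjusted p-values come from edgeR's quasi-likelihood test with Benjamini-Hochberg adjustment over all genes tested, and a gene was called when the adjusted p was under 0.05. By the share of genes that lay 3-fold or more apart from both other replicates, the parenchyma libraries differed most among themselves. In replicate 3 of that group, 5.70% of the 11969 genes with a mean of at least 0.5 CPM lay 3-fold or more above both other replicates, against 0.167% in replicate 1. Replicate 2 lay 3-fold or more below both others in 4.29% of those genes. No Nr4a gene was among these.

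**Figure D1:**
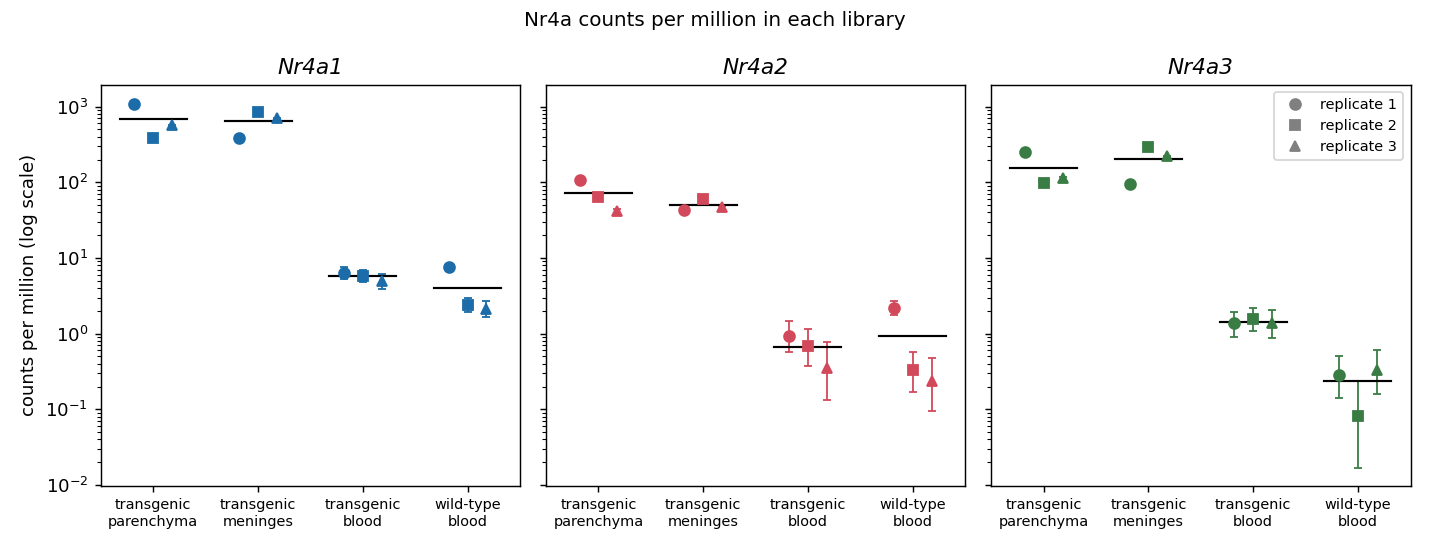
CPM (log axis) of Nr4a1, Nr4a2 and Nr4a3 in each of the 12 libraries, with the mean of each group as a line and exact 95% Poisson intervals of the counts as bars. All 6 brain libraries lie above all 6 blood libraries for each gene, by 44.4-fold or more against the transgenic ones and 19.0-fold or more against the wild-type ones, and the wild-type library of replicate 1 stands above the other two for Nr4a1 and Nr4a2.

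Nr4a1, the gene with the most counts of the family, was at 385 CPM or more in every brain library and at 7.49 CPM or less in every blood library. It reached 1098, 389 and 565 CPM in parenchyma replicates 1, 2 and 3, and 385, 844 and 699.7 CPM in the meninges. In transgenic blood it was at 6.36, 5.87 and 4.93 CPM, and in wild-type blood at 7.49, 2.41 and 2.14 CPM. The brain libraries overlapped each other and none overlapped blood, while wild-type replicate 1 lay above the transgenic blood libraries and the other two wild-type libraries lay below them. Means were 684 ± 369 CPM for parenchyma, 643 ± 235 CPM for meninges, 5.72 ± 0.728 CPM for transgenic blood and 4.01 ± 3.01 CPM for wild-type blood (SD, n = 3 each).

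Nr4a2, known in the brain for its part in dopamine neurons, had the lowest counts of the family in both brain compartments. It was at 109, 64.6 and 41.8 CPM in parenchyma replicates 1, 2 and 3 and at 42.6, 59.6 and 46.9 CPM in the meninges. Transgenic blood held 0.942, 0.685 and 0.356 CPM, on 20, 14 and 6 counts. Wild-type blood held 2.20, 0.329 and 0.234 CPM, on 85, 12 and 7 counts. Wild-type replicate 1 was the highest of the 6 blood libraries, and its exact 95% Poisson interval, 1.76 to 2.72 CPM, lay above those of the other 5. Means were 72.0 ± 34.4 CPM for parenchyma, 49.7 ± 8.85 CPM for meninges, 0.661 ± 0.294 CPM for transgenic blood and 0.922 ± 1.11 CPM for wild-type blood (SD, n = 3 each).

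Nr4a3 separated the genotypes in blood as well as brain from blood. Parenchyma replicates 1, 2 and 3 had 254, 98.8 and 113 CPM, and meninges replicates 1, 2 and 3 had 95.9, 292 and 221 CPM. In transgenic blood the level was 1.37, 1.57 and 1.37 CPM, on 29, 32 and 23 counts. In wild-type blood it was 0.285, 0.0823 and 0.334 CPM, on 11, 3 and 10 counts. Brain lay above transgenic blood, and transgenic above wild-type blood, with no overlap. The exact 95% Poisson intervals of the transgenic blood libraries began at 0.865 CPM or higher, and those of the wild-type libraries ended at 0.614 CPM or lower. Such intervals cover counting error only. Means were 155 ± 85.8 CPM for parenchyma, 203 ± 99.4 CPM for meninges, 1.43 ± 0.116 CPM for transgenic blood and 0.234 ± 0.133 CPM for wild-type blood (SD, n = 3 each).

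Meninges and transgenic blood were compared as cells next to the brain against circulating ones. All 3 Nr4a genes rose in the meninges, where 4.76% of the 11809 genes tested were called higher. Nr4a1 was higher by a log2 fold change of 6.86 (SE 0.48, 116-fold, adjusted p = 6.86e-05). Nr4a3 was higher by 7.19 on the log2 scale (SE 0.58, 146-fold, adjusted p = 1.22e-04), and Nr4a2 by 6.24 (SE 0.44, 75.4-fold, adjusted p = 6.86e-05). Each of the 3 meningeal libraries lay above each blood library for every member, a separation seen in 13.5% of the genes tested. The lowest meningeal library exceeded the highest blood library 60.6-fold for Nr4a1, 45.2-fold for Nr4a2 and 61.2-fold for Nr4a3.

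These rises were among the largest in the data. Of all genes tested, 17 had a larger fitted rise in the meninges than Nr4a1, 29 than Nr4a2 and 12 than Nr4a3. Folds of genes nearly absent from blood rest on few counts. Among the 11118 genes with at least 30 pooled counts in transgenic blood, a limit set after the values were seen, Nr4a3 ranked 2nd by rise, Nr4a1 ranked 3rd and Nr4a2 ranked 8th. Pooled counts were 338 for Nr4a1, 40 for Nr4a2 and 84 for Nr4a3. The limit thus kept all 3 members and lay close to the count of Nr4a2, and these ranks depend on it. The cells were profiled in bulk, so more cells with Nr4a transcripts and more transcripts per cell cannot be told apart.

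**Figure D2:**
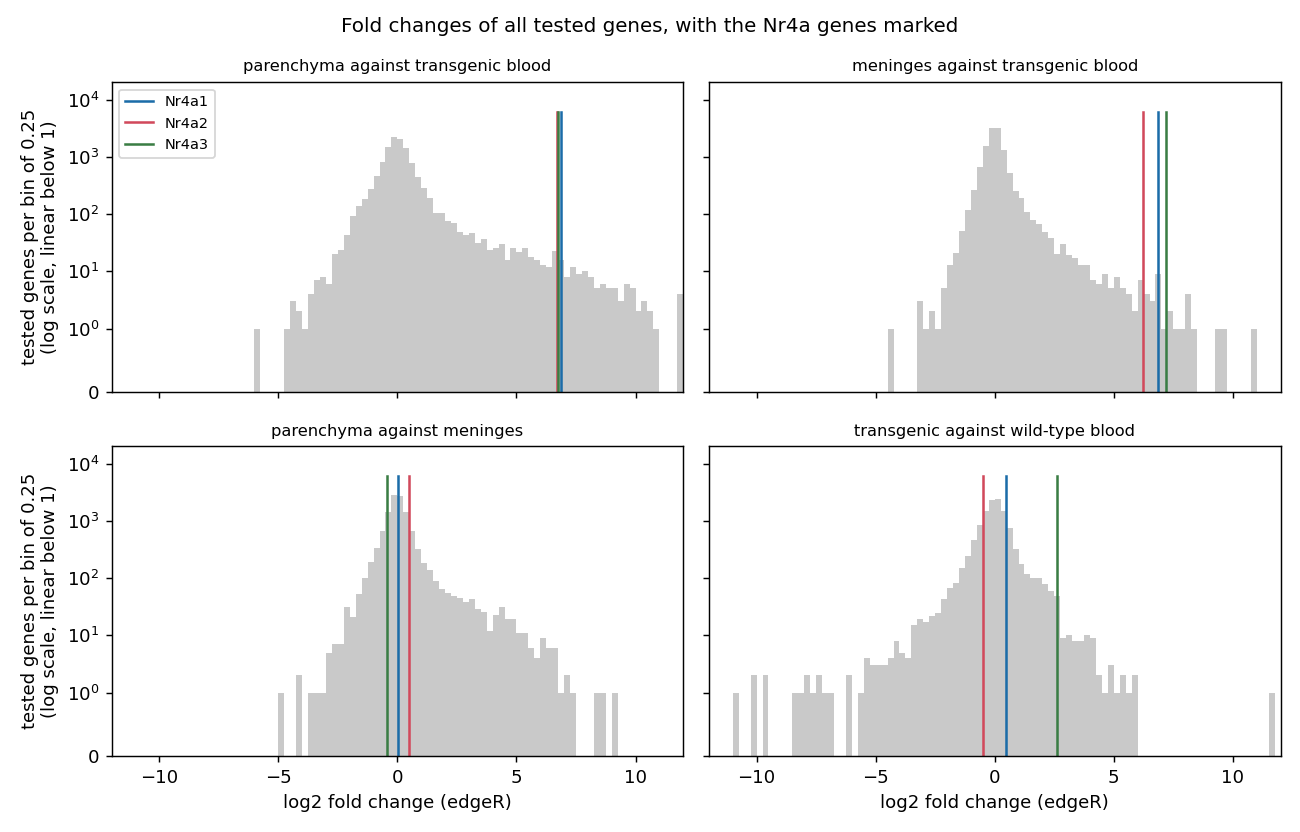
Number of tested genes per bin of log2 fold change (first group of each panel's title over the second; log axis, linear below 1; values beyond 12 are placed in the outermost bins), with lines at Nr4a1, Nr4a2 and Nr4a3. The genes stand in the right tail in both comparisons of brain with transgenic blood, near 0 between the brain compartments, and in blood Nr4a3 alone stands apart at 2.60.

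Parenchyma and transgenic blood were compared as cells within the brain against circulating ones. All 3 genes rose there too, against a background of 18.7% of genes called higher and 24.2% with every parenchyma library above every blood library. The log2 fold change was 6.89 for Nr4a1 (SE 0.48, 118-fold, adjusted p = 1.60e-05), 6.70 for Nr4a2 (SE 0.45, 104-fold, adjusted p = 1.16e-05) and 6.74 for Nr4a3 (SE 0.57, 107-fold, adjusted p = 4.07e-05). Rises were larger than that of Nr4a1 in 105 genes, than that of Nr4a2 in 116 genes and than that of Nr4a3 in 111 genes. With the minimum of 30 pooled counts in blood, Nr4a1 ranked 9th, Nr4a3 11th and Nr4a2 13th among the 11118 genes, ranks that again depend on that limit. The comparison shares its blood libraries with that of the meninges. The rises were as large without parenchyma replicate 3, the library in which many genes stood apart, with log2 fold changes of 7.0 for Nr4a1, 6.97 for Nr4a2 and 6.92 for Nr4a3. Without parenchyma replicate 1, the highest of its group for each gene, they were lower, at 6.37 for Nr4a1, 6.27 for Nr4a2 and 6.19 for Nr4a3. Markers of other cell types that a sort from brain might hold were not analysed here. The same holds for a planned list of immediate early and tissue dissociation genes. The part of other cells or of tissue dissociation in the rises was not tested in either brain compartment.

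**Figure D3:**
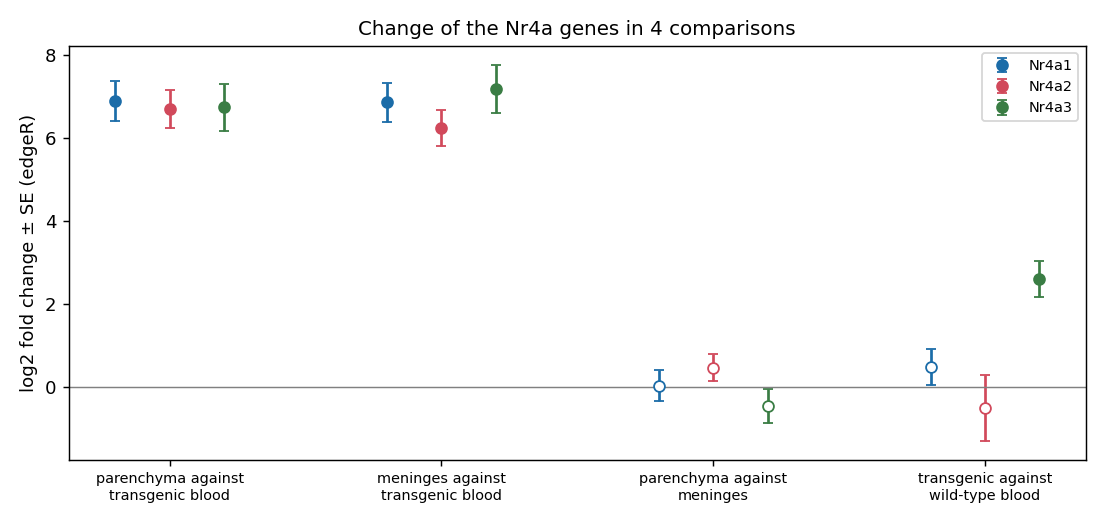
Log2 fold change ± SE of Nr4a1, Nr4a2 and Nr4a3 from edgeR in the 4 comparisons, first-named group over the second, with filled points where the adjusted p was under 0.05. All 3 genes lie between 6.24 and 7.19 in brain against transgenic blood and within 0.47 of 0 between the brain compartments, and in blood Nr4a3 alone is filled.

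Between parenchyma and meninges no Nr4a gene was called, in a comparison that called 15.5% of genes in either direction. Nr4a1 differed by 0.03 on the log2 scale (SE 0.37, adjusted p = 0.966), a value whose sign changed under 5 other settings. Nr4a2 had a log2 fold change of 0.47 (SE 0.32, adjusted p = 0.355) and Nr4a3 of -0.45 (SE 0.41, adjusted p = 0.509). The libraries of the tissues overlapped for each gene, whereas 34.5% of tested genes did not overlap. The order of levels was thus parenchyma and meninges on top, with differences within their spread, then blood, for all 3 genes. Means of 3 libraries bound these differences loosely: leaving out 1 library at a time gave log2 fold changes from -0.49 to 0.31 for Nr4a1, from 0.03 to 0.74 for Nr4a2 and from -1.0 to -0.10 for Nr4a3.

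Within a brain compartment the Nr4a genes varied more between replicates than most genes did. On log2(CPM + 0.5), the SD of Nr4a1 was 0.76 in the parenchyma and 0.59 in the meninges, and that of Nr4a3 was 0.73 and 0.83. The median SD over genes of at least 10 CPM was 0.18 in the parenchyma and 0.14 in the meninges. Of those genes, 96.3% had a smaller SD than Nr4a1 in the parenchyma and 99.1% in the meninges, and 96.0% and 99.8% had a smaller SD than Nr4a3. The SD of Nr4a2 was 0.69 in the parenchyma, above that of 95.6% of genes, and 0.25 in the meninges, above that of 82.0%. Replicate 1 was the highest parenchyma library and the lowest meningeal one for each gene. For Nr4a1 and Nr4a3 the whole order of the replicates was reversed between the tissues. With 3 libraries a tissue, whether the spread is tied to the replicate number cannot be told. The summed Nr4a level ran from 552 to 1461 CPM in the parenchyma and from 524 to 1196 CPM in the meninges, against 6.65 to 8.67 CPM in transgenic blood.

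Nr4a1 and Nr4a3 followed each other across the 6 brain libraries, with Pearson's r = 0.92 (exact permutation p = 0.0139, 0.0417 adjusted over 3 pairs) and Spearman's rho = 0.94 (exact permutation p = 0.0167, 0.0501 adjusted). Without parenchyma replicate 1 and meninges replicate 1, the 2 libraries farthest from the median of Nr4a1, r was 0.93. Of 8593 other genes, 0.850% followed Nr4a1 more closely than Nr4a3 did in these libraries. The relation of Nr4a2 to Nr4a1 was weaker (r = 0.62, exact permutation p = 0.190, rho = 0.54, exact permutation p = 0.297) and fell to r = -0.25 without the same libraries. For Nr4a2 and Nr4a3, r was 0.50 (exact permutation p = 0.308), rho was 0.43 (exact permutation p = 0.419), and r was 0.14 without parenchyma replicates 1 and 3. Adjusted p-values of these 2 pairs were 0.285 and 0.308 for r and 0.419 for rho of either. The permutations treated the 6 libraries as exchangeable, setting aside tissue and any pairing by replicate number, so the p-values hold only under that assumption. A compartment alone has 3 libraries, too few for a value of its own.

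**Figure D4:**
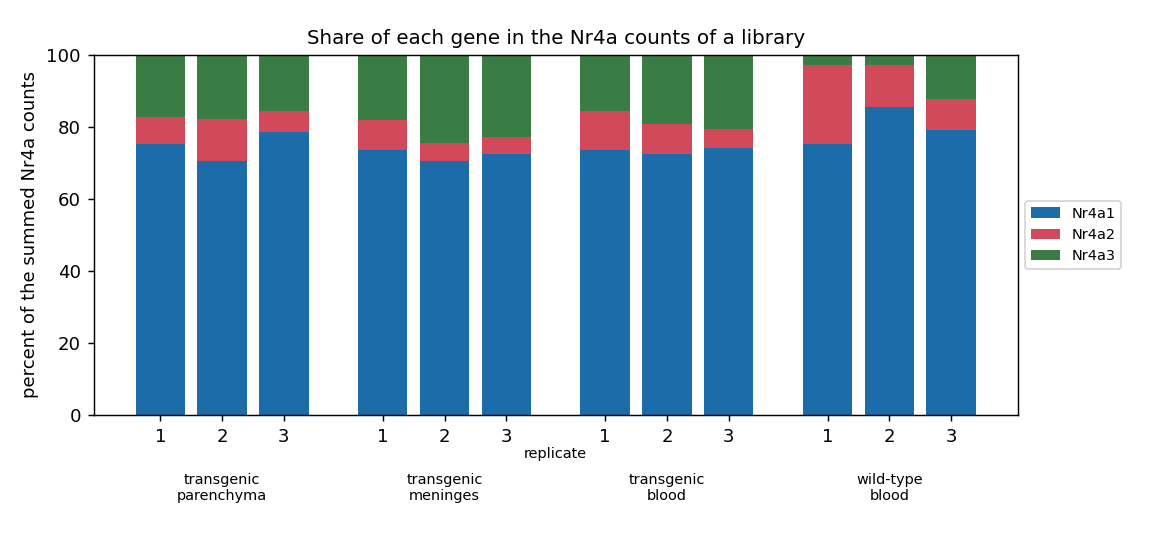
Percent of the summed Nr4a counts that came from Nr4a1, Nr4a2 and Nr4a3 in each library, by group and replicate. Nr4a1 holds between 70.4% and 78.5% in every transgenic library, and Nr4a3 holds 2.86% to 12.3% in wild-type blood, below its 15.7% or more in all transgenic libraries.

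The make-up of the Nr4a counts was similar in transgenic cells of all tissues. Nr4a1 took 74.7% ± 4.07 of them in parenchyma, 72.2% ± 1.5 in meninges and 73.3% ± 0.914 in blood (SD, n = 3 each). In wild-type blood Nr4a1 took 79.8% ± 5.24. Wild-type replicate 1, at 75.1%, lay within the range of the transgenic libraries. Replicates 2 and 3, at 85.4% and 79.0%, lay above it. These are shares of counts, and longer transcripts give more counts, so they do not rank the genes by transcript number. Nr4a3 took 17.0% ± 1.16 in parenchyma, 21.8% ± 3.18 in meninges and 18.5% ± 2.47 in transgenic blood, against 6.04% ± 5.46 in wild-type blood. Nr4a2 took 8.33% ± 3.03 in parenchyma, 5.99% ± 1.86 in meninges, 8.22% ± 2.76 in transgenic blood and 14.1% ± 7.05 in wild-type blood.

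Whether the genes changed to the same extent was asked with the log2 ratio of 2 members within a library, which does not depend on library scaling. For 3 pairs in 4 comparisons this gave 12 two-sided exact permutation tests, in which 3 libraries against 3 cannot give a p under 0.10. The smallest adjusted p was 0.48. Because of that floor no test could pass the threshold of 0.05, so these tests do not decide the question. In the meninges against transgenic blood the rise of Nr4a2 was smaller than that of Nr4a3 by 0.72 on the log2 scale (SE 0.53, exact permutation p = 0.20), within the spread of the ratios. The ratio did not overlap between transgenic and wild-type blood for 2 pairs. Nr4a1 over Nr4a3 was lower in transgenic blood, at a log2 ratio of 1.97 ± 0.20 against 3.98 ± 1.18 in wild-type blood, and Nr4a2 over Nr4a3 was -1.18 ± 0.66 against 1.42 ± 1.73 (SD, n = 3 each, exact permutation p = 0.10 for both). For Nr4a2 over Nr4a3 the groups were separated by little, with a highest transgenic ratio of -0.53 and a lowest wild-type ratio of -0.49. The size of both differences varied with the libraries used: that of Nr4a1 over Nr4a3, -2.0 with all, ranged from -2.68 without wild-type replicate 3 to -1.66 without wild-type replicate 2, and that of Nr4a2 over Nr4a3, -2.60 with all, from -3.55 without wild-type replicate 3 to -1.86 without wild-type replicate 1. With a pseudocount of 5 counts in place of 0.5 they were -1.5 and -2.0.

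The genotypes were compared in blood, where both were sequenced. Nr4a3 was higher in transgenic cells by a log2 fold change of 2.60 (SE 0.43, 6.07-fold, adjusted p = 0.00210), in a comparison that called 13.1% of 11618 genes higher, 25.8% in either direction, and in which 23.6% had all transgenic above all wild-type libraries. It was called under each of the 14 other settings, with adjusted p-values from 1.36e-05 to 0.0256. Nr4a1 and Nr4a2 were not called: the log2 fold change was 0.48 for Nr4a1 (SE 0.44, adjusted p = 0.438) and -0.51 for Nr4a2 (SE 0.79, adjusted p = 0.662). Both values turned on wild-type replicate 1. Without it Nr4a1 was higher in transgenic cells by 1.32 (SE 0.24, adjusted p = 0.00502), and the value for Nr4a2 changed sign to 1.22 (SE 0.52, adjusted p = 0.112). That library is the highest of its group for both genes, so leaving it out raises both values, and the call of Nr4a1 rests on that choice. Leaving out any other library gave 0.16 to 0.57 for Nr4a1 and -0.96 to -0.24 for Nr4a2, with neither called. All wild-type libraries had more counts than any transgenic one from blood. The labels also name 2 library kits without tying either to a sample, so a kit that differed between groups cannot be told apart from genotype or tissue.

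In wild-type replicate 1, Nr4a1 was 3.10-fold and Nr4a2 6.69-fold above the next wild-type library, while Nr4a3 was at 0.854 of it. Few genes behaved so: 13 of 11298 genes with a mean of at least 0.5 CPM lay 3-fold or more above both other wild-type libraries, which is 0.115%. Nr4a1 and Nr4a2 were among these 13. The other wild-type replicates had 13 and 11 such genes. In that library Nr4a1 was 51.5-fold and Nr4a2 19.0-fold below the lowest brain library.

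**Figure D5:**
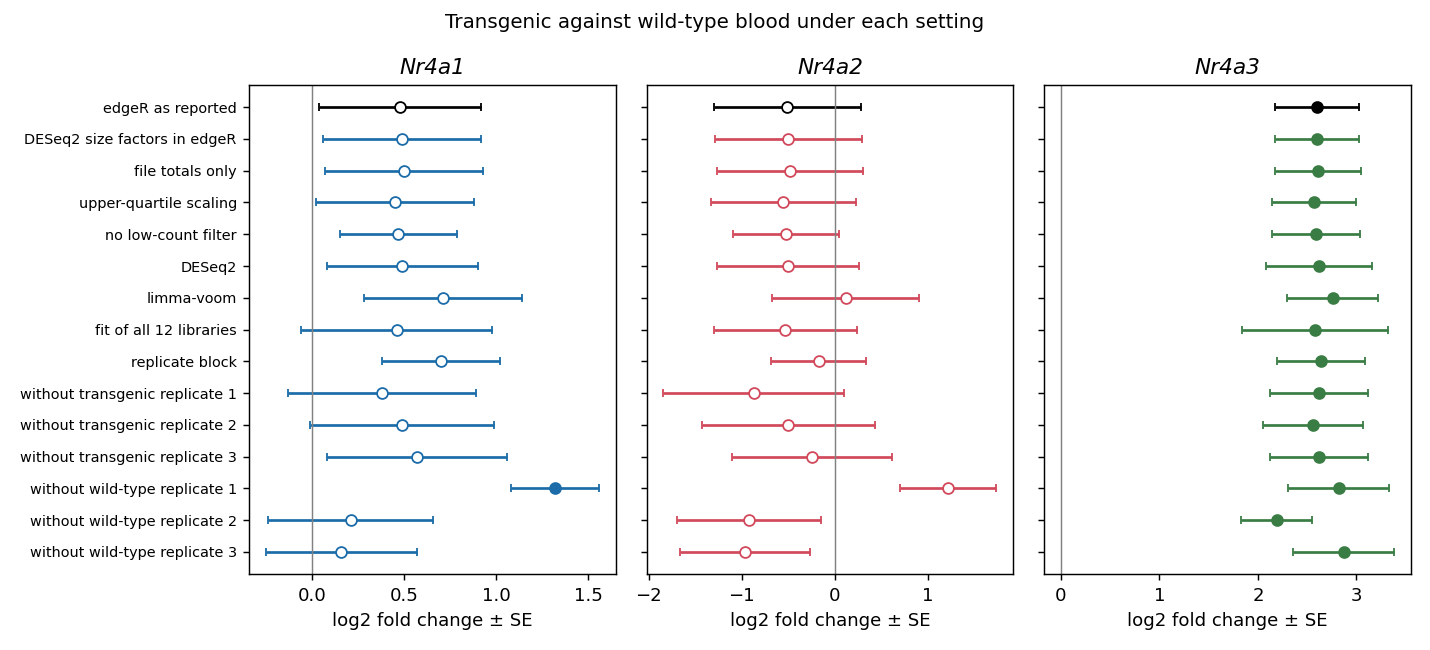
Log2 fold change ± SE of Nr4a1, Nr4a2 and Nr4a3 in transgenic over wild-type blood, as reported (black) and under 14 other settings, with filled points where the adjusted p was under 0.05. Nr4a3 stays between 2.19 and 2.87 and filled, whereas leaving out wild-type replicate 1 moves Nr4a1 to 1.32 and Nr4a2 to 1.22.

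The genes most like each Nr4a gene were sought over the 9 transgenic libraries by Pearson's r of log2(CPM + 0.5), among 8593 genes of at least 10 CPM in 1 of the 3 tissues. The libraries form a blood and a brain cluster, so r mostly reflects the step between them and is given as a description. Nr4a1 and Nr4a3 had r = 0.997 with each other, and 0 of the 8593 genes were more like Nr4a3 than Nr4a1 was, with 1 gene more like Nr4a1 than Nr4a3 was. That gene, ENSRNOG00000058186, averaged 16.2 CPM in parenchyma, 15.7 CPM in meninges and 3.28 CPM in transgenic blood, and it was the gene second most like Nr4a3 outside the family. The gene most like Nr4a2 was ENSRNOG00000002568 (r = 0.992), at 184 CPM in parenchyma, 157 CPM in meninges and 29.9 CPM in transgenic blood. Over all 12 libraries, 3 of the 5 genes most like Nr4a1, 1 of those most like Nr4a2 and 2 of those most like Nr4a3 were found again, and by Spearman's rho 0 were. The files do not pair identifiers with names, and these genes are given no name.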

How the data were processed

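The authors deposited raw gene counts as whole numbers, 1 table for each of the 12 libraries and 32754 rows in each. STAR 2.5, featureCounts 1.5.0-p1 and DESeq2 1.14.1 are named with build rn6, per the submitters' processing notes. The strand setting and annotation of the counting are not stated there. RefSeq lists 0 genes that overlap Nr4a1 or Nr4a2 and 1 that overlaps Nr4a3, LOC134478966, whose reads could not be separated without strand. Members and tests were chosen with earlier results of these data known.

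CPM is the count over the library total. edgeR 4.0.16 (R 4.3.3; filterByExpr with a minimum count of 10, TMM) was fitted to the 9 transgenic libraries for tissues and to the 6 blood libraries for genotype, and the SE is the log2 fold change over the square root of F. The procedure was checked on simulated data whose changes were far smaller than the rises of the Nr4a genes in brain, so the check does not cover rises of that size. Nothing in the labels says that replicates are separate animals, so p-values reflect only the spread between samples, possibly technical. The lowest chi-square per degree of freedom between replicates was 13.9, so none agreed within sampling noise. The chi-square grows with depth, and every wild-type blood library had more counts than any parenchyma library. Its highest values, 96.8 in wild-type blood and 97.4 in parenchyma, thus do not rank these groups by spread. By a fixed rule, the members and the genes most like them are named, with few identifiers. The 15 gene lists planned by symbol were not analysed here, because 0 of 47357 reference entries carry an Ensembl identifier. These lists included T cell and other cell type markers, and immediate early and tissue dissociation genes.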

Additional observations from a re-analysis of the deposited data

How the results depend on the processing

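The log2 fold changes of Nr4a1, Nr4a2 and Nr4a3 in brain against transgenic blood kept direction and call in all 45 gene and setting combinations for either compartment, at 5.96 to 7.51 for meninges and 6.19 to 7.16 for parenchyma. In parenchyma against meninges, Nr4a1 was 0.03, and it was -0.0045 without a low-count filter, -0.03 by limma-voom, -0.05 with the replicate block, and -0.49 to 0.31 with 1 library left out. In transgenic against wild-type blood, Nr4a2 was 0.12 by limma-voom; with 1 library left out, Nr4a1 ranged from 0.16 to 1.32, Nr4a2 from -0.96 to 1.22 and Nr4a3 from 2.19 to 2.87. The difference in rise between Nr4a2 and Nr4a3 in parenchyma against transgenic blood, 0.09, was -0.17 with a pseudocount of 5 and -0.24 to 0.42 with 1 library left out, and that between Nr4a1 and Nr4a2, 0.07, was -0.20 to 0.39. The last ranges were chosen after seeing the data. Leaving out 1 library moved counts of called genes over all genes: from 286 to 493 higher and 59 to 130 lower in the meninges against blood (562 and 207 with all), from 325 to 1255 and 405 to 904 in parenchyma against meninges (945 and 883), and from 953 to 1423 and 836 to 1483 between genotypes (1518 and 1484). The lowest counts came without transgenic blood replicate 2 (286 higher) and meninges replicate 2 (59 lower) in the first comparison, without meninges replicate 2 in the second and without transgenic blood replicate 1 in the third, where 952 were lower without wild-type replicate 2. In the meninges against blood, DESeq2 called 853 and 485 genes and a fit of only these groups called 466 lower, and such a fit called 584 higher in parenchyma against meninges. The 5 most alike genes shared with other settings numbered 3, 1 and 2 over all 12 libraries for Nr4a1, Nr4a2 and Nr4a3, and 0 each by Spearman's rho. Same-numbered libraries deviated from their group means with correlations between -0.27 and 0.37, and differently numbered ones between -0.40 and 0.38. For same numbers they were 0.34, 0.37 and -0.04 between transgenic blood and meninges. They were -0.12, -0.11 and 0.05 between transgenic blood and parenchyma, and -0.21, -0.03 and -0.27 between parenchyma and meninges. Whether the numbers pair libraries cannot be told from these values. The block changed no member's call. Blood levels of Nr4a2 and Nr4a3 rest on 3 to 85 counts a library, which limits their folds. The cause of these changes was not tested.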
